A study of Mus musculus with 15 samples.

Results

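The response to dinitrofluorobenzene (DNFB) in cells that also received diphenyl iodonium (DPI) was read from 6 of the 15 arrays of the study: the 3 arrays labelled DPI + DNFB and the 3 labelled DPI. Members were chosen by these sample titles alone, and all 45037 probe sets other than the array controls were used. The labels describe the cells as a dendritic cell line, established from skin epidermis of newborn A/J mice. The DPI + DNFB cells received both compounds, and the DPI cells received the inhibitor without the allergen. The DNFB effect in cells without DPI was taken from 3 DNFB arrays and 3 non-treated arrays, so the 2 DNFB effects share no array. The 3 further arrays, of cells given H2O2, entered only the estimate of the spread. The labels give no dose, no exposure time and no time of harvest. The controls without DPI are labelled non-treated, although the series text mentions vehicle. All groups are 1 cell line. Separate cultures behind the arrays are not stated, so the p-values cover array-to-array spread alone, and that spread may be technical.

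DNFB is a small, protein-reactive chemical that sensitises skin. It binds cysteine and lysine side chains and consumes glutathione, and damaged proteins and electrophiles are sensed by several stress pathways: heat shock factor and the cytosolic chaperones, the kinases that act on translation through ATF4, and KEAP1, whose modification releases the transcription factor NRF2. DPI blocks NADPH oxidase and many other flavoenzymes, including enzymes of the respiratory chain, and is used to lower the formation of reactive oxygen species. Dendritic cells exposed to contact allergens are known to mature, with more costimulatory ligands, chemokines and cytokines.

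On the DPI + DNFB and DPI arrays, some markers of the labelled cell type were bright and others dim. On every one of these arrays the leukocyte marker Ptprc was at least 9397 and the class II chain H2-Ab1 at least 7913. The integrin Itgax was at least 2261. By contrast, Flt3 ran between 34 and 153, Zbtb46 between 146.5 and 260 and Epcam between 160 and 275. Of 13 dendritic and Langerhans cell markers 12 passed the signal filter, which is set on the mean of all 15 arrays and so does not show presence on these 6. The summed signal of all 13 ran between 76459 and 84628 on the DPI + DNFB arrays and between 56467 and 69520 on the DPI arrays. Cd74, the invariant chain of MHC class II, and the transcription factor Spi1 were the 2 markers that rose, and none fell. Cd74 was the largest part of each sum, between 46603 and 54250 with DPI + DNFB and between 27710 and 41179 with DPI. The Langerhans cell lectin Cd207 was dim, between 22 and 56 on all 6 arrays, and the chemokine receptor Ccr7 did not pass the filter. Of 7 macrophage markers 1 rose and 1 fell, with sums of 15928 to 18591 with DPI + DNFB and 12932 to 14489 with DPI. The 1 that rose, Csf1r, was bright, between 10529 and 12202 with DPI + DNFB and between 8344 and 8876 with DPI. Keratinocyte markers, 3 of 8 above the filter, summed to between 438 and 919 with DPI + DNFB and between 431 and 610 with DPI. Of 5 mast cell markers 2 passed the filter: the receptor Kit fell, while Tpsb2, at 0.09, did not pass the test. No fibroblast, T cell, melanocyte or endothelial marker passed the test, but only those above the filter were tested. These were 1 of 6 fibroblast, 1 of 6 T cell, 3 of 5 melanocyte and 1 of 4 endothelial markers. In RNA of whole cultures, fewer cells of a type and less RNA per cell cannot be told apart.

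The DPI + DNFB group had the highest means of all groups in the RNA quality controls. Array controls placed along beta-actin and Gapdh transcripts give a 3'/5' signal ratio, which goes up when RNA is broken or copied incompletely. For beta-actin the ratio was 2.07, 1.50 and 2.29 on the DPI + DNFB arrays and 1.34, 1.19 and 1.33 on the DPI arrays. For Gapdh it was 1.09, 0.952 and 1.27 with DPI + DNFB and 0.852, 0.857 and 0.872 with DPI. These groups did not overlap for either control. Over the other 12 arrays of the study the highest values were 1.53 for beta-actin, just above DPI + DNFB replicate 2, and 0.922 for Gapdh, below all 3 DPI + DNFB arrays. With 3 arrays against 3 an exact permutation test cannot go below p = 0.1. The 100 brightest probe sets also held more of the summed signal, 17.0%, 14.9% and 18.3% with DPI + DNFB and 14.0%, 10.4% and 11.5% with DPI. Agreement between replicates was lower in the DPI + DNFB group, with r of 0.916 to 0.927 over probe sets, than in the DPI group, with r of 0.944 to 0.955. Because of this, each gene group below is given also with replicate 2 standing alone for DPI + DNFB, where the spread comes from the other groups, and with the beta-actin ratio as a covariate.

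**Figure D1:**
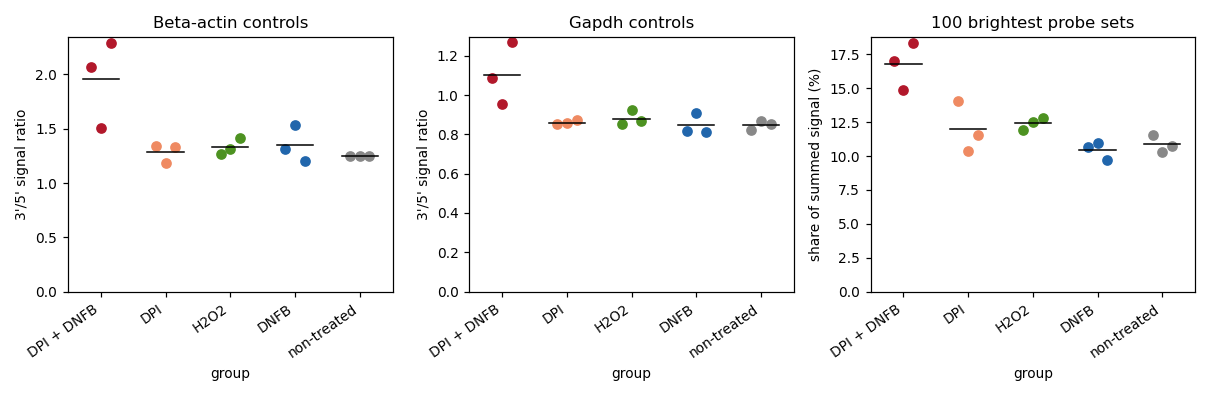
Each point is 1 array and each line a group mean. The panels plot the 3'/5' signal ratio of the beta-actin controls, the same ratio of the Gapdh controls, and the share of the summed signal held by the 100 brightest probe sets in percent, for the DPI + DNFB, DPI, H2O2, DNFB and non-treated arrays. DPI + DNFB has the highest mean in each panel, and its replicate 2 is the lowest of its 3 arrays.

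Over 12701 tested genes, DPI + DNFB against DPI gave 3530 genes past an adjusted p of 0.05 in limma, which is 27.8% of those tested. Of these 1785 (14.1%) rose and 1745 (13.7%) fell. A change of at least 2-fold was found in 380 risen genes (2.99%) and 288 fallen genes (2.27%). The signals of the 3 and 3 arrays did not overlap for 38.6% of genes, 21% higher and 17.7% lower. This split depends on the scaling: with each array centred on its median in place of its trimmed mean, 3529 genes passed, of which 666 rose and 2863 fell, since the median change of all genes moved to -0.173, against 0.08 here. All 666 of those rises and 1745 of those falls were calls in the same direction here. Small changes therefore have no settled direction. The medians of gene groups below are not adjusted and are to be read against the median of 0.08. Their counts are to be read against the shares of all genes, 14.1% up and 13.7% down here. Counts with median centring are to be read against its own 666 up and 2863 down of 12701 genes, where falls outnumber rises. With replicate 2 alone fewer of all genes passed than here, so fewer list members are to be looked for. With the beta-actin covariate 4.26% of all genes passed in either direction. Direction also went with brightness: among the 20% of genes with the lowest signal the median log2 change was 0.200, with 97 up and 33 down, and among the 20% with the highest signal it was -0.051, with 453 up and 672 down.

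With DPI + DNFB replicate 2 alone, 1270 genes passed, and 1143 of the 3530 calls were kept in direction and side of the threshold. With the beta-actin ratio in the fit, 541 genes passed, and 502 of the 3530 were kept. The sign, whatever the p, was the same for 3516 of the 3530 with replicate 2 alone and for 3479 with the covariate. The ratio is nearly a label of the DPI + DNFB group, so with the covariate the difference between the groups is estimated less precisely. The estimates moved both ways: the change of Ctsl went from -1.06 to -0.61 and that of Il10ra from 2.30 to 2.72.

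The largest rise among named genes was that of the nucleoside diphosphate kinase Nme1. Its signal was 18217, 20131 and 23551 on the DPI + DNFB arrays and 3533, 2550 and 2385 on the DPI arrays. The groups were far apart (log2 change 2.88 ± 0.22, SE, with n = 3 in each group and an adjusted p of 1.29e-07 in limma). Its level was 8366, 7861 and 8674 with DNFB and 11445, 4976 and 5423 in non-treated cells, so that the DPI arrays were the lowest of these 4 groups and the DPI + DNFB arrays the highest. The other probe set of Nme1 changed by only 0.08. The mitochondrially encoded respiratory chain subunit ND5 had 51596, 39380 and 56451 with DPI + DNFB and 11454, 9900 and 10378 with DPI (2.20 ± 0.14, adjusted p = 3.04e-08). No DPI + DNFB array came near the DPI arrays, and the call held with replicate 2 alone (1.90) and with the beta-actin covariate (1.64).

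Receptors and adhesion genes were also among the 12 largest rises. P2ry6, a receptor for extracellular UDP, had 153, 367 and 410 with DPI + DNFB and 32, 33 and 61 with DPI (2.44 ± 0.30, adjusted p = 1.33e-05). Il10ra, the ligand-binding chain of the interleukin-10 receptor, had 245, 279 and 272 with DPI + DNFB and 11, 118 and 38 with DPI (2.30 ± 0.37, adjusted p = 0.000145). Both genes were brighter in cells without DPI, between 443 and 661 for P2ry6 with DNFB and between 492 and 695 without treatment, so the DPI + DNFB arrays lay between the DPI arrays and the cells without inhibitor. The adhesion genes Cdh13, a cadherin, and Nrxn3, a neurexin, rose by 2.15 and 2.30 on the log2 scale, and the actin regulator Eps8 and the adaptor Sh2d3c by 2.16 and 2.23. Spaca4, a sperm membrane protein, and Flacc1 rose by 2.79 and 2.33. These 6 genes were dim, under 100 on every DPI array. With the beta-actin covariate none of these 6 passed, while P2ry6 (2.60) and Il10ra (2.72) did. Cdh13 was then at 1.45, Nrxn3 at 1.10, Eps8 at 1.90, Sh2d3c at 1.80, Spaca4 at 3.03 and Flacc1 at 2.24. On replicate 2 alone these 6 were at 1.42, 1.385, 2.44, 2.30, 2.42 and 2.12, in the same order. The keratin Krt78 had 158, 33 and 409 with DPI + DNFB and 15, 21 and 21 with DPI, a scatter of more than 10-fold within 1 group. Its change of 2.15 lost its call when DPI + DNFB replicate 1 (2.06) or 3 (1.42) or any 1 of the DPI arrays (2.07 to 2.20) was left out, and turned to -0.33 with the beta-actin covariate.

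Among the 12 largest falls, Zhx1, a zinc finger and homeobox repressor, had 649, 553 and 437 with DPI + DNFB and 1933, 1880 and 2343 with DPI (-1.89 ± 0.16, adjusted p = 5.25e-07). Kitl, the stem cell factor that binds Kit, had 580, 518 and 279 with DPI + DNFB and 1737, 1600 and 1825 with DPI (-1.93 ± 0.21, adjusted p = 4.11e-06). In both cases the DPI arrays were the highest of the 4 groups: non-treated cells had 916 to 1043 for Zhx1 and 543 to 622 for Kitl. Crisp3, a secreted cysteine-rich protein, had 253, 224 and 187 with DPI + DNFB and 1124, 1453 and 954 with DPI (-2.32 ± 0.21, adjusted p = 1.61e-06). The T-box factor Eomes had 272, 114 and 154 with DPI + DNFB and 716, 661 and 779 with DPI (-1.99 ± 0.31, adjusted p = 0.000107). These 4 calls held with replicate 2 alone and with the covariate. Abhd3, a phospholipase, fell by 2.40, and the phosphodiesterase Pde7b by 2.04, the phosphatase Dusp14 by 2.07 and Fndc1 by 2.09. With the covariate Abhd3 passed (-2.59), while Pde7b (-1.13), Dusp14 (-2.79) and Fndc1 (-1.18) did not. On replicate 2 alone Pde7b, Dusp14 and Fndc1 were at -1.19, -2.21 and -1.11. Dusp14 scattered, at 6, 33 and 132 with DPI + DNFB, and another probe set of Fndc1 was at 0.44. Rapsn, Slc16a4, Dcun1d4 and Exd2, with changes of -2.05, -2.03, -1.96 and -1.93, were dim and lost their call when 1 array was left out: Rapsn without DPI replicate 3 (-1.68), Slc16a4 without DPI + DNFB replicate 3 (-1.39) or DPI replicate 3 (-1.78), Exd2 without DPI + DNFB replicate 3 (-1.41), DPI replicate 2 (-1.75) or DPI replicate 3 (-1.84), and Dcun1d4 when any 1 of the 6 arrays other than DPI + DNFB replicate 3 was left out (between -1.66 and -2.06).

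Several heat shock chaperones were higher with the allergen. Of 22 measured members, some of them mitochondrial, 9 rose, 2 fell and 11 did not pass (14.1% and 13.7% of all genes rose and fell), with a median log2 change of 0.32 against 0.08 over all genes. The inducible Hsp70 gene Hspa1b had 18069, 28411 and 23202 with DPI + DNFB and 3195, 5110 and 2975 with DPI (2.64 ± 0.51, adjusted p = 0.000771). Bag3, an Hsp70 co-chaperone that directs clients to autophagy, had 2047, 2566 and 2520 with DPI + DNFB and 845, 848 and 737 with DPI (1.53 ± 0.14, adjusted p = 1.61e-06). Hsph1, an exchange factor of Hsp70, had 24117, 25034 and 25086 with DPI + DNFB and 9779, 8855 and 8947 with DPI (1.43 ± 0.16, adjusted p = 4.31e-06). Each DPI + DNFB array was above each DPI array for these 3 genes.

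Hspa1a, a near-identical copy of Hspa1b whose signals cannot be fully separated from it, was dim, with 88, 245 and 169 with DPI + DNFB and 32, 52 and 52 with DPI. Its change of 1.51 passed (adjusted p = 0.0434), but not when any 1 of the 6 arrays other than DPI + DNFB replicate 1 was left out (1.21 to 1.60). Outside the rule for named genes, and chosen after their values were seen, the constitutive Hsp70 Hspa8 rose by 1.29, the Hsp40 Dnajb1 by 1.33 and the small heat shock protein Hspb1 by 0.88. The mitochondrial Hsp70 Hspa9 and the Hsp40 Dnajb4 were the 2 that fell, by 0.30 and 0.51. On replicate 2 alone, 5 members rose and none fell, with the covariate 3 rose and none fell, and with arrays centred on the median 5 rose and 4 fell.

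Heat shock factor binds repeats of GAA in alternating orientation. The 250 bases before the start of each gene were searched on both strands for a pair of such units in either order, GAANNTTC or TTCNNGAA, which share letters where 3 units follow each other. The pair forms were added after the stricter heat shock element of 3 units had been found before only 3 chaperone genes (Hspe1, Hspd1 and Dnajb6). A pair lay before 10 of 19 chaperone genes with an entry (52.63%), against 12.4% of 10272 tested genes, 12.83% of 304 genes at least 2-fold higher and 14.71% of 238 at least 2-fold lower. Below are the promoter stretches of the pair of brightly expressed chaperones described above, 120 bases ending just before the start, from RefSeq on GRCm38.p6, with the pair in capitals. Hspa1b lies at chr17:34959239-34959358 and Hsph1 at chr5:149636337-149636456, both on the minus strand.
Hspa1b: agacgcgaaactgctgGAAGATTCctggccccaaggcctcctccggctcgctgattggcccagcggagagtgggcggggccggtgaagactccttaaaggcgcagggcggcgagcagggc
Hsph1: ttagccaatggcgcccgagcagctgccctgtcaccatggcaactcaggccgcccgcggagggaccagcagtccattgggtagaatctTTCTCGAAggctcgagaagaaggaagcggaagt
The pair begins 104 bases before the start in Hspa1b and 33 bases before it in Hsph1. A match is a description of the letters and does not show that the factor bound there.

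Of 28 ATF4 and amino acid response genes 16 rose and 2 fell, with a median of 0.46. ATF4 is translated when the initiation factor eIF2 is phosphorylated, and it drives genes for amino acid supply, redox balance and, through CHOP, cell death. Ddit3, which encodes CHOP, had 3780, 3976 and 4593 with DPI + DNFB and 1124, 1014 and 959 with DPI (1.98 ± 0.19, adjusted p = 1.79e-06). Atf4 itself had 6679, 7056 and 7095 with DPI + DNFB and 2968, 3427 and 2819 with DPI (1.18 ± 0.12, adjusted p = 2.77e-06). The pseudokinase Trib3, a target of CHOP, had 868, 1009 and 1181 with DPI + DNFB and 196, 576 and 235 with DPI (1.71 ± 0.30, adjusted p = 0.000348). No array of one group reached those of the other for these 3 genes.

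Ppp1r15a, the phosphatase subunit that reverses eIF2 phosphorylation, had 3966, 3382 and 3783 with DPI + DNFB and 1924, 1452 and 1532 with DPI (1.18 ± 0.20, adjusted p = 0.000218). Atf3, a stress-induced transcription factor, had 1251, 1288 and 1434 with DPI + DNFB and 714, 537 and 625 with DPI (1.07 ± 0.22, adjusted p = 0.00115). Of the list, Cth and Psph, enzymes of cysteine and serine synthesis, were the 2 members that fell, by 0.66 and 0.44, and Asns, asparagine synthetase, was at -0.20 and did not pass. Using replicate 2 alone, 10 rose and none fell, with the covariate 7 rose and none fell, and with median centring 9 rose and 5 fell. Under the covariate Ddit3, Atf4, Bag3, Nme1, Hsph1 and Trib3 kept their calls. Atf3 (0.87), Ppp1r15a (1.05), Hspa1b (2.71) and Hspa1a (1.90) lost theirs. With replicate 2 alone the changes were 1.93, 1.20, 1.65 and 2.85 for Ddit3, Atf4, Bag3 and Nme1. They were 1.035, 1.05, 2.96 and 2.12 for Atf3, Ppp1r15a, Hspa1b and Hspa1a.

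ATF4 binds composite sites of the form TGATGNAA, searched on both strands. The motif lay before 5 of 20 listed genes with an entry (25.0%), namely Atf3, Chac1, Asns, Nupr1 and Gars, against 2.53% of tested genes, 2.63% of those at least 2-fold higher and 2.94% of those at least 2-fold lower. Atf3, Chac1 and Nupr1 rose, Chac1 by 0.90 and Nupr1 by 1.12, while Asns and Gars did not pass. Stretches of 120 bases of the 3 that rose are given from RefSeq on GRCm38.p6, with the motif in capitals, here read as TTGCATCA on the strand shown. Atf3 lies at chr1:191183334-191183453 on the minus strand, Chac1 at chr2:119351029-119351148 on the plus strand and Nupr1 at chr7:126625471-126625590 on the minus strand.
Atf3: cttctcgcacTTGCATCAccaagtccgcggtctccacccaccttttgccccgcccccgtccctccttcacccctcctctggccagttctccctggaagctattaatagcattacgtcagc
Chac1: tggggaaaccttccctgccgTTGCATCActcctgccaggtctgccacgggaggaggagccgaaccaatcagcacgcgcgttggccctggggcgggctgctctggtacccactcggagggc
Nupr1: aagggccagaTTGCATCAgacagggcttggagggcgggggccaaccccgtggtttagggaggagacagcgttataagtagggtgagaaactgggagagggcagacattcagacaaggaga
The motif begins 110 bases before the start in Atf3 and Nupr1. In Chac1, a glutathione-degrading enzyme, it begins 193 bases before the start, and the stretch shown ends 94 bases before it.

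Genes of the unfolded protein response of the endoplasmic reticulum (ER) did not rise with them. Of 23 measured, none rose and 8 fell, with a median of -0.10. Atf6, the membrane-bound sensor that is cleaved to a transcription factor, had 1017, 813 and 671 with DPI + DNFB and 1957, 1742 and 1848 with DPI (-1.15 ± 0.15, adjusted p = 1.98e-05). Eif2ak3, the ER kinase PERK, had 1961, 2016 and 1750 with DPI + DNFB and 3155, 3217 and 3241 with DPI (-0.74 ± 0.13, adjusted p = 0.000369). Both sensors were lower on every DPI + DNFB array. The disulphide isomerase Pdia3 (-0.95) and the ER co-chaperone Dnajb11 (-0.85) fell as well, while the ER Hsp70 Hspa5 was at -0.07 and Xbp1 at 0.45, neither past the test. With replicate 2 alone 4 fell, with the covariate 2 fell, with median centring 10 fell, and none rose under these; with quantile normalization 1 rose and 8 fell.

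The NRF2 and glutathione list did not rise as a group in the presence of DPI. Of 28 measured, 3 rose and 7 fell, with a median of -0.05. Gclc, the catalytic subunit of the enzyme that limits glutathione synthesis, had 1217, 1382 and 937 with DPI + DNFB and 3297, 3589 and 3862 with DPI (-1.61 ± 0.13, adjusted p = 3.38e-07). It was 4837 to 5199 with DNFB and 1954 to 2272 without treatment, so the DPI + DNFB arrays were the lowest of these 4 groups. Txnrd1, thioredoxin reductase, had 3813, 2944 and 3282 with DPI + DNFB and 5233, 5111 and 6343 with DPI (-0.73 ± 0.11, adjusted p = 8.71e-05). Ugdh, which makes the sugar donor for glucuronidation, had 2506, 2297 and 1599 with DPI + DNFB and 4711, 3989 and 5368 with DPI (-1.15 ± 0.16, adjusted p = 5.3e-05).

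The genes of this pathway that DNFB raised most without DPI were low on the DPI + DNFB arrays. Srxn1, sulfiredoxin, had 341, 367 and 383 with DPI + DNFB and 399, 466 and 302 with DPI, and the groups overlapped (-0.07 ± 0.13, adjusted p = 0.719). In the cells without DPI it had 14527, 13620 and 13680 with DNFB and 1532, 1621 and 1457 without treatment. Hmox1, heme oxygenase, had 1157, 889 and 403 with DPI + DNFB and 1158, 1167 and 906 with DPI, with overlap again (-0.51 ± 0.28, adjusted p = 0.181). Its levels without DPI were 14672, 10850 and 9082 with DNFB and 1166, 1268 and 932 without treatment. The 2 genes thus differed in their start: DPI arrays were below the non-treated arrays for Srxn1 and overlapped them for Hmox1.

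Other members followed in part. Gclm, the regulatory partner of Gclc, was at -0.11 (adjusted p = 0.601), Nqo1, a quinone reductase that was dim on all 6 arrays, at -0.30 (adjusted p = 0.734), and Slc7a11, the cystine transporter, at 0.56 (adjusted p = 0.119) with another probe set at -1.73. The autophagy receptor Sqstm1 fell by 0.51, although its other probe set was at 0.31. Of the 3 that rose, Osgin1, an oxidative stress-induced growth inhibitor, had 452, 646 and 626 with DPI + DNFB and 118, 237 and 285 with DPI (1.43 ± 0.26, adjusted p = 0.000386). The other two were Keap1, at 0.49, and the ferritin heavy chain Fth1, at 0.46. On replicate 2 alone, 1 rose and 4 fell, with the covariate 1 rose and 3 fell, and with median centring 1 rose and 7 fell. Without DPI replicate 3, 1 rose, and without DPI replicate 1, 5 rose. Gclc, Txnrd1 and Ugdh kept their falls in these alternatives.

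NRF2 acts through antioxidant response elements, searched here as TGACNNNGC on both strands. The motif lay before 6 of 24 listed genes with an entry (25.0%: Gclm, Txnrd1, Abcc4, Nfe2l2, Mafg and Ugdh). It lay before 13.72% of tested genes, 16.45% of those at least 2-fold higher and 11.76% of those at least 2-fold lower. Gclc and Hmox1 had no entry and were not searched. Stretches of 120 bases of the pair that fell are shown from RefSeq on GRCm38.p6, with the motif in capitals. Txnrd1 lies at chr10:82859086-82859205 on the plus strand, at 1 of 3 listed starts, and Ugdh at chr5:65435843-65435962 on the minus strand.
Txnrd1: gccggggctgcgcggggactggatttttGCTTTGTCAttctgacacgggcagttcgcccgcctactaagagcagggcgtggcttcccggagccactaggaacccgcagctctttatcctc
Ugdh: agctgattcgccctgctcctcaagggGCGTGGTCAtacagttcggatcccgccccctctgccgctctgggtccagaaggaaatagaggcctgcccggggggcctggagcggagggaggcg
The motif begins 92 bases before the start in Txnrd1 and 94 bases before it in Ugdh, which holds another match further upstream, 132 bases before its start.

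Among 20 thioredoxin, peroxiredoxin and other antioxidant genes, 4 rose and 4 fell (14.1% and 13.7% of all genes), with a median of 0.13. That count was 2 up and 1 down on replicate 2 alone, 2 up and none down with the covariate, 1 up and 5 down with median centring, 2 up and 3 down without DPI + DNFB replicate 3, 2 down without DPI + DNFB replicate 2 or DPI replicate 2, and 2 up and 2 down without DPI replicate 3. Metallothionein Mt1, a zinc-binding protein, had 22759, 22420 and 26187 with DPI + DNFB and 11551, 10394 and 9887 with DPI (1.16 ± 0.11, adjusted p = 1.79e-06). Those DPI + DNFB levels overlapped the 24229 to 30455 of non-treated cells, and the DPI arrays lay below both. Glutaredoxin Glrx fell, with 657, 591 and 509 with DPI + DNFB and 1442, 1344 and 1402 with DPI (-1.24 ± 0.17, adjusted p = 4.96e-05), and catalase, Cat, fell by 0.57. Of 8 measured NADPH oxidase genes 3 rose and 1 fell: the subunits Ncf1 (0.55), Cyba (0.45) and Ncf4 (0.41) rose. The catalytic subunit Cybb had 144, 392 and 407 with DPI + DNFB and 99, 351 and 341 with DPI (0.29 ± 0.53, adjusted p = 0.726). Its replicate 1 was the lowest in both groups. Of the 8, 1 rose and none fell on replicate 2 alone, none passed with the covariate, and none rose and 1 fell with median centring.

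**Figure D2:**
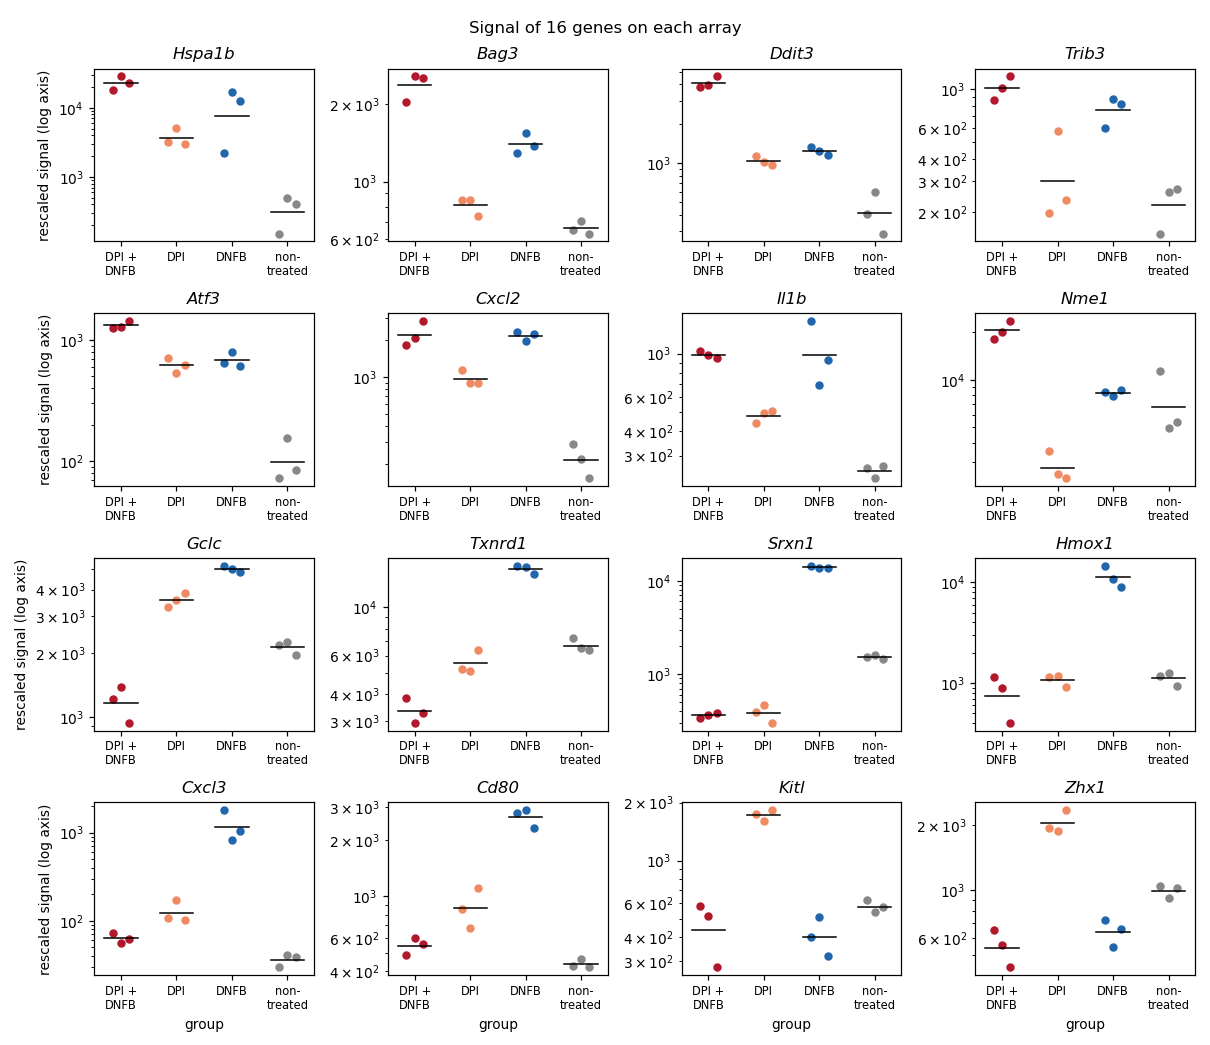
Rescaled signal of 16 genes on a log axis, with 1 point per array and a line at the group mean, for the DPI + DNFB, DPI, DNFB and non-treated arrays. The chaperone and ATF4 genes of the top rows are higher with DPI + DNFB than with DPI, Gclc, Txnrd1, Kitl and Zhx1 are lower, and Srxn1 and Hmox1 overlap between those groups while standing highest with DNFB.

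Immediate early genes are switched on within minutes of a stimulus; of 31 measured, 14 rose and 2 fell, with a median of 0.52. Jun had 6606, 6736 and 6408 with DPI + DNFB and 3156, 3098 and 2790 with DPI (1.12 ± 0.21, adjusted p = 0.000502). Fosb had 1581, 1148 and 1267 with DPI + DNFB and 737, 564 and 542 with DPI (1.10 ± 0.27, adjusted p = 0.00533). Fos had 8521, 13692 and 9638 with DPI + DNFB and 8107, 8702 and 8384 with DPI, and the groups overlapped (0.31 ± 0.28, adjusted p = 0.446). Egr1 had 14104, 14116 and 10782 with DPI + DNFB and 8527, 6830 and 7149 with DPI, without overlap but also without passing (0.79 ± 0.42, adjusted p = 0.174). Fos and Egr1 were already bright with DPI alone, where no array was below 6830, against at most 1448 on the DNFB arrays and at most 965 on the non-treated arrays.

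The MAP kinase phosphatase Dusp1 had 756, 1257 and 780 with DPI + DNFB and 1074, 714 and 758 with DPI (0.12 ± 0.23, adjusted p = 0.758), and 95 to 149 in non-treated cells. Ier2 rose by 0.95, and the growth-factor-responsive repressor Klf10 fell by 1.05. Using replicate 2 alone, 6 rose and 1 fell, with the covariate 2 rose and 1 fell, and with median centring 6 rose and 4 fell. Without DPI replicate 3 the count of risen members was 9.

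Of 32 cytokine, chemokine and NF-kB genes 13 rose and 2 fell, with a median of 0.58. The neutrophil chemokine Cxcl2 had 1822, 2053 and 2822 with DPI + DNFB and 1134, 899 and 888 with DPI (1.17 ± 0.19, adjusted p = 0.000208). Il1b, the inflammasome cytokine, had 1027, 980 and 949 with DPI + DNFB and 439, 497 and 506 with DPI (1.02 ± 0.23, adjusted p = 0.00244). The chemokine Ccl4 had 996, 783 and 693 with DPI + DNFB and 318, 310 and 381 with DPI (1.25 ± 0.22, adjusted p = 0.000304). All 3 were higher on each DPI + DNFB array than on any DPI array.

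Members of the same list went the other way or stayed low. Cxcl10, an interferon-induced chemokine for T cells, had 261, 326 and 232 with DPI + DNFB and 955, 652 and 673 with DPI (-1.42 ± 0.33, adjusted p = 0.00324). Cxcl3 had 73, 56 and 62 with DPI + DNFB and 106, 171 and 103 with DPI, a gap that did not pass (-0.82 ± 0.31, adjusted p = 0.0555) although the groups did not overlap, and that passed with quantile normalization (-1.10). Without DPI, Cxcl3 stood at 1795, 834 and 1032 with DNFB and at 30, 41 and 39 in non-treated cells. Il23a, a subunit of interleukin-23, was at 43, 21 and 37 with DPI + DNFB and 97, 42 and 86 with DPI (-0.86 ± 0.39, adjusted p = 0.107), and passed as lower with median centring (-1.11) and with quantile normalization (-1.07). Outside the list, the signalling adaptor Traf1, named for its difference between the DNFB effects, fell by 1.31, with 31, 40 and 147 with DPI + DNFB and 157, 204 and 149 with DPI, although a dimmer probe set of the gene rose by 1.55 and their mean stood at 0.12. With replicate 2 alone 5 members rose and none fell, with the covariate 4 rose and none fell, and with median centring 5 rose and 4 fell. Without DPI + DNFB replicate 1 or replicate 3, 7 members rose.

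Of the costimulatory genes named, Cd80 fell and Icosl rose. Neither call held with the covariate (-0.75 and 0.48) or with only the arrays deposited at a trimmed mean of 500 (-0.57 and 1.06). On replicate 2 alone the changes were -0.52 and 0.67. In the maturation and antigen presentation list, 6 of 25 rose and 2 fell (14.1% and 13.7% of all genes), with a median of 0.12. The costimulatory ligand Cd80 had 484, 599 and 560 with DPI + DNFB and 859, 678 and 1115 with DPI (-0.65 ± 0.16, adjusted p = 0.00447). Its other probe sets were at -0.28 and 0.20. Cd83, Cd40 and Cd86 were at 0.25, 0.08 and -0.13, none past the test. Cd74 had 50960, 46603 and 54250 with DPI + DNFB and 41179, 27710 and 32668 with DPI (0.60 ± 0.13, adjusted p = 0.00244). The ICOS ligand Icosl rose by 1.09 and Ciita, the master regulator of class II genes, by 0.57. Icosl lost its call without DPI + DNFB replicate 1 (0.93), DPI + DNFB replicate 3 (1.04) or DPI replicate 3 (0.87), and Ciita when any 1 array other than DPI replicate 1 was left out (0.49 to 0.60). The list's count was fragile: 1 rose without DPI + DNFB replicate 1, 2 without DPI + DNFB replicate 3, 3 without DPI + DNFB replicate 2 or DPI replicate 2 and 1 without DPI replicate 3, 1 rose on replicate 2 alone, none rose with the covariate, and with median centring 1 rose and 3 fell.

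Of 15 measured matrix metalloproteinases and inhibitors, 1 rose and 1 fell (14.1% and 13.7% of all genes). The macrophage elastase Mmp12 had 215, 265 and 275 with DPI + DNFB and 129, 180 and 175 with DPI (0.60 ± 0.17, adjusted p = 0.0136), a call lost without DPI + DNFB replicate 3 (0.54) or DPI replicate 1 (0.46). In cells without DPI it reached 6980, 5439 and 7351 with DNFB, against 193, 246 and 265 in non-treated cells. Mmp10 had 150, 107 and 200 with DPI + DNFB and 149, 61 and 45 with DPI (0.85 ± 0.42, adjusted p = 0.139). The sheddase Adam9 fell by 0.66. None of the list passed on replicate 2 alone or with the covariate, and 2 rose without DPI + DNFB replicate 1 and none without DPI + DNFB replicate 3.

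Interferon response genes rose in 7 of 27 cases and none fell, with a median of 0.43. Ifi35 had 7743, 8662 and 7892 with DPI + DNFB and 3641, 4941 and 3294 with DPI (1.05 ± 0.18, adjusted p = 0.000348). Oas2, which makes the activator of the antiviral nuclease RNase L, had 2467, 2045 and 1553 with DPI + DNFB and 1077, 979 and 689 with DPI (1.13 ± 0.27, adjusted p = 0.00356). The groups did not overlap for either gene. The interferon-induced chemokine Cxcl10, by contrast, was among the falls described above. On replicate 2 alone, 2 rose, with the covariate none did, with median centring 2 rose, without DPI replicate 3 2 rose and without DPI replicate 1 4 rose.

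**Figure D3:**
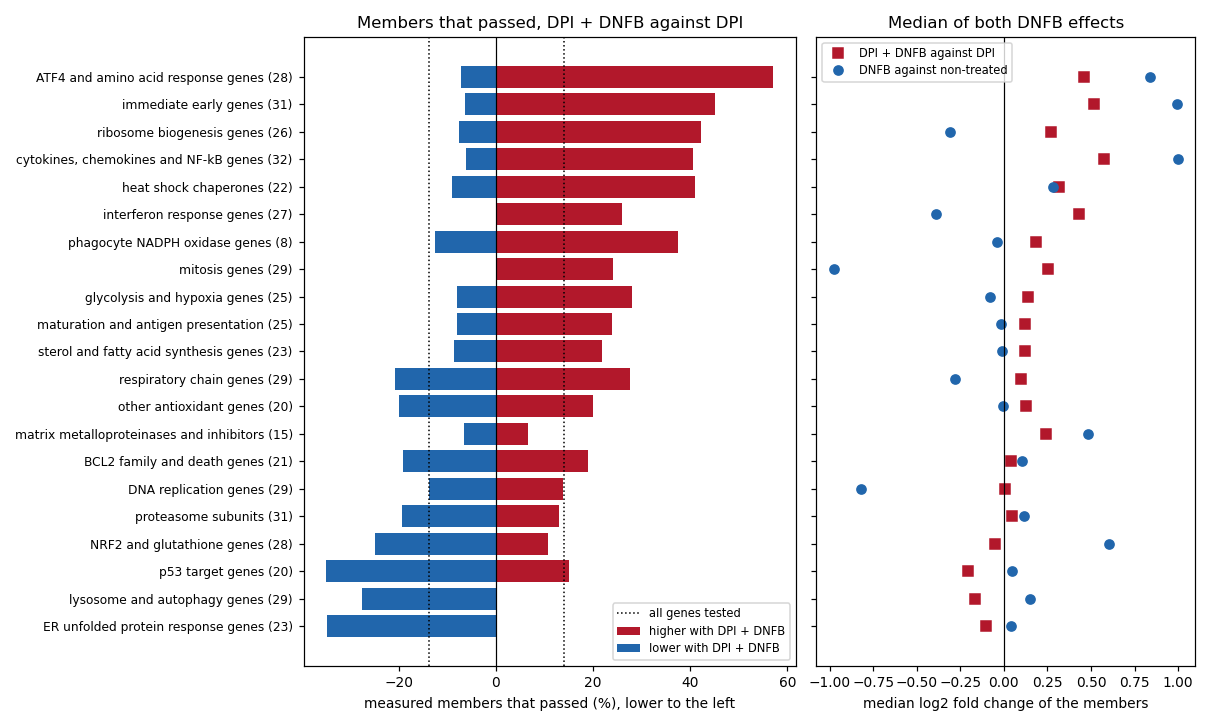
Left, the percent of measured members (number in parentheses) of 21 gene lists that passed as higher (to the right) or lower (to the left) with DPI + DNFB than with DPI, with dotted lines at 14.1% and 13.7% of all genes tested. Right, the median log2 fold change of each list for DPI + DNFB against DPI (squares) and DNFB against non-treated (circles). The ATF4 list has the highest share of risen members, and the mitosis and DNA replication lists have their medians far apart between the 2 effects.

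Of 29 mitosis genes 7 rose and none fell, with a median of 0.25. Cdc20, an activator of the anaphase-promoting complex, had 12549, 10541 and 14648 with DPI + DNFB and 6110, 6724 and 7036 with DPI (0.91 ± 0.14, adjusted p = 9.22e-05). Top2a, the DNA topoisomerase of chromosome condensation, had 6579, 6131 and 5202 with DPI + DNFB and 4079, 3359 and 3189 with DPI (0.75 ± 0.15, adjusted p = 0.00109). Birc5, survivin, rose by 0.66. All 3 DPI + DNFB arrays were above all 3 DPI arrays for these genes, but the direction of the list depends on the scaling, since 2 members rose and 5 fell with median centring. Using replicate 2 alone, 7 rose, and with the covariate 3 rose. Without DPI + DNFB replicate 3, DPI replicate 1 or DPI replicate 3, 4 rose.

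Of 29 DNA replication genes 4 rose and 4 fell, near the 14.1% and 13.7% of all genes, with a median of 0.01. With median centring 1 rose and 9 fell. On replicate 2 alone 1 rose and 1 fell, and with the covariate none passed. Without DPI + DNFB replicate 3, 2 rose, and 2 fell when any 1 DPI array was left out. The polymerase subunit Pold1 rose by 1.05, and the sliding clamp Pcna fell, with 12130, 15998 and 11068 with DPI + DNFB and 23408, 18354 and 21766 with DPI (-0.71 ± 0.13, adjusted p = 0.000369). The ribonucleotide reductase subunit Rrm2 had 4664, 4391 and 5763 with DPI + DNFB and 6309, 5448 and 6085 with DPI (-0.27 ± 0.13, adjusted p = 0.113), and passed as lower with median centring (-0.53).

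Of 26 ribosome biogenesis genes 11 rose and 2 fell, with a median of 0.27. Nop56, a core protein of the box C/D particles that methylate ribosomal RNA, had 6714, 5898 and 8934 with DPI + DNFB and 2853, 2744 and 2767 with DPI (1.34 ± 0.12, adjusted p = 1.61e-06). The nucleolar GTPase Gnl3 had 3356, 3549 and 3917 with DPI + DNFB and 2101, 2164 and 2088 with DPI (0.76 ± 0.09, adjusted p = 1.53e-05). Both were lower with DPI than in any of the non-treated arrays, which had 3982 to 4653 for Nop56 and 3620 to 3763 for Gnl3. With replicate 2 alone 3 rose and none fell, with the covariate 2 rose and 1 fell, and with median centring 5 rose and 5 fell, while Nop56 and Gnl3 passed in each. Without DPI + DNFB replicate 3, 7 rose. Respiratory chain genes encoded in the nucleus split, 8 up and 6 down of 29: the complex I subunits Ndufa5 (0.78), Ndufb7 (0.72) and Ndufa2 (0.67) rose and Ndufa9 fell by 0.58. That split turned to 3 up and 13 down with median centring, to 3 up and 4 down on replicate 2 alone and to 1 up and none down with the covariate, and 5 rose without DPI + DNFB replicate 3.

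Lysosome and autophagy genes fell in 8 of 29 cases and none rose, with a median of -0.17. The protease cathepsin L, Ctsl, had 4233, 5057 and 3359 with DPI + DNFB and 9660, 7231 and 9299 with DPI (-1.06 ± 0.16, adjusted p = 7.76e-05). The proton pump subunit Atp6v1a had 2443, 2345 and 1813 with DPI + DNFB and 4170, 3803 and 4287 with DPI (-0.90 ± 0.12, adjusted p = 2.21e-05). The autophagosome proteins Gabarapl1 and Gabarapl2 fell by 0.64 and 0.60, although another probe set of Gabarapl2 was at 0.04. On replicate 2 alone, 4 fell, with the covariate 1 fell and with median centring 14 fell, none rising in any of these.

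p53 targets fell in 7 of 20 cases and rose in 3, with a median of -0.20. The RNA-binding protein Zmat3 had 316, 273 and 291 with DPI + DNFB and 543, 659 and 651 with DPI (-1.03 ± 0.16, adjusted p = 0.000145). The stress kinase Plk3 had 771, 874 and 948 with DPI + DNFB and 465, 394 and 245 with DPI (1.24 ± 0.25, adjusted p = 0.00114). The cell cycle inhibitor Cdkn1a had 2238, 2264 and 2134 with DPI + DNFB and 3151, 2625 and 3015 with DPI (-0.40 ± 0.13, adjusted p = 0.0307). That small gap had no overlap but no firm call: it was lost without DPI + DNFB replicate 1 (-0.41) or 3 (-0.37) and without DPI replicate 1 (-0.35) or 3 (-0.38), and another probe set was at 0.49. Using replicate 2 alone, 1 rose and 2 fell, and with the covariate none rose and 1 fell, while with median centring 1 rose and 10 fell. Without DPI + DNFB replicate 3, 1 rose and 4 fell, and without DPI replicate 1, 1 rose.

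Of 21 genes of the BCL2 family and of death pathways 4 rose and 4 fell (14.1% and 13.7% of all genes). Apaf1, the scaffold of the apoptosome, had 459, 446 and 441 with DPI + DNFB and 1072, 1049 and 1093 with DPI (-1.23 ± 0.13, adjusted p = 2.81e-06), with little scatter in either group. The caspase-8 inhibitor Cflar fell by 0.77, with other probe sets between -0.32 and 0.34, and the BH3-only gene Bad rose by 0.67. In this list 1 rose and 3 fell on replicate 2 alone, with the covariate 1 rose and 1 fell, and with median centring none rose and 8 fell.

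Of 25 glycolysis and hypoxia genes 7 rose and 2 fell. The glucose transporter Slc2a1 had 9310, 8617 and 9652 with DPI + DNFB and 4434, 4889 and 4411 with DPI (1.004 ± 0.14, adjusted p = 3.93e-05). The vasodilator peptide gene Adm, a target of hypoxia-inducible factors, had 339, 247 and 315 with DPI + DNFB and 67, 122 and 81 with DPI (1.61 ± 0.30, adjusted p = 0.000643). Both separated the groups fully. Of 23 sterol and fatty acid genes 5 rose and 2 fell, with Insig1, which retains the sterol sensor in the ER, up by 0.76, the squalene synthase Fdft1 up by 0.73 and the desaturase Scd1 down at -0.65. Proteasome subunits rose in 4 of 31 cases and fell in 6, with Psmd2 at -0.49, a share called near that of all genes. The proteasome count was not stable: none passed on replicate 2 alone or with the covariate, none rose without DPI + DNFB replicate 3, 1 rose without DPI replicate 2, 2 rose and 3 fell without DPI replicate 3, and 3 fell without DPI + DNFB replicate 1. The glycolysis list had 1 up and none down on replicate 2 alone and with the covariate, and 2 up and 4 down with median centring. The sterol list had 2 up and 1 down on replicate 2 alone, 2 up and none down with the covariate, and 1 up and 5 down with median centring. For proteasome subunits median centring gave none up and 11 down.

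The DNFB effect differed with and without DPI for many genes. The test of that difference, (DPI + DNFB minus DPI) minus (DNFB minus non-treated), passed for 3945 genes (31.1%), positive for 2195 (17.3%) and negative for 1750 (13.8%), and with median centring it was positive for 1099 and negative for 2410. It passed with at least a 2-fold size for 9.02% of genes as positive and 6.85% as negative. Without DPI, 3105 genes (24.4%) passed for DNFB, 1337 (10.5%) up and 1768 (13.9%) down, with 3.17% up and 3.75% down by at least 2-fold. Genes that passed in both effects went the same way in 200 cases up and 199 down. They went opposite ways in 838 cases: 407 rose with DPI and fell without it, which is 22.8% of the rises with DPI and 23% of the falls without, and 431 fell with DPI and rose without it, 24.7% and 32.2%. The difference passed for all 407 and all 431. Across genes, which are not independent, the correlation of the 2 effects was -0.118.

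**Figure D4:**
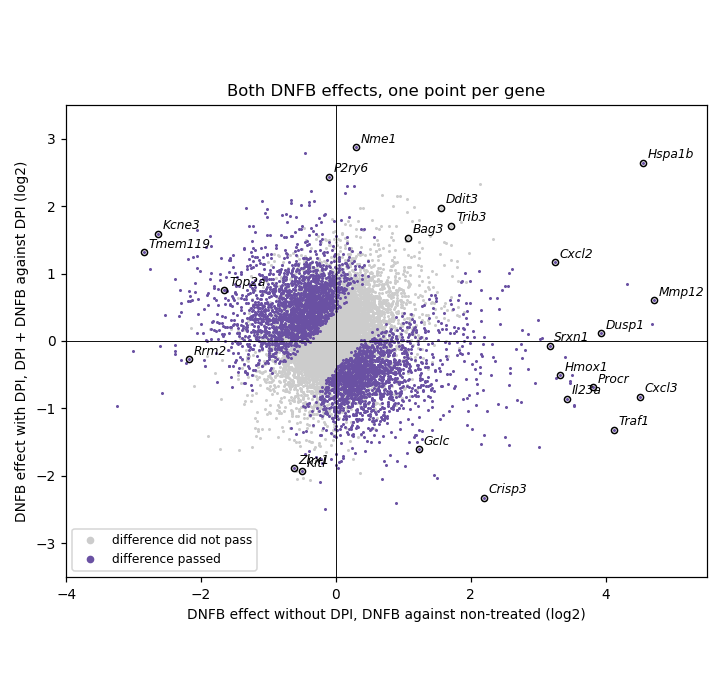
Each point is 1 of 12701 genes, with the log2 DNFB effect in the absence of DPI (DNFB against non-treated) on the x axis and in its presence (DPI + DNFB against DPI) on the y axis, purple where the difference of the effects passed. Mmp12, Cxcl3, Traf1, Procr and Srxn1, which rose steeply without DPI, lie below 1 on the y axis, while Hspa1b and Cxcl2 are high on both axes and Nme1 and P2ry6 on the y axis alone.

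For 6 named stress genes the difference was not detected. Ddit3 rose by 1.98 with DPI and 1.56 without it, Trib3 by 1.71 and 1.71, Bag3 by 1.53 and 1.07, Hsph1 by 1.43 and 1.70, Atf4 by 1.18 and 0.90, and Jun by 1.12 and 1.61, and the difference did not pass for any of them (adjusted p from 0.0882 to 0.991). The differences were 0.42 ± 0.27 for Ddit3, -0.01 ± 0.42 for Trib3 and 0.46 ± 0.20 for Bag3 (SE). A p that misses the threshold does not show that the effects were equal. Hspa1b rose by 2.64 with DPI and 4.56 without it, a difference of -1.92 ± 0.72 at the edge of the threshold (adjusted p = 0.0498). Atf3 (-1.54, adjusted p = 0.000741) and Cxcl2 (-2.07, adjusted p = 1.15e-05) also had smaller fold changes with DPI than without. All 3 started higher: the DPI arrays were at 2975 to 5110 for Hspa1b, 537 to 714 for Atf3 and 888 to 1134 for Cxcl2, against 151 to 491, 72 to 156 and 153 to 287 in non-treated cells. Their mean end levels were not lower. Means on the log2 scale, turned back to signal, were 22838 with DPI + DNFB and 7707 with DNFB for Hspa1b. They were 1322 and 680 for Atf3, and 2194 and 2146 for Cxcl2. The DNFB arrays of Hspa1b scattered, at 2187, 16908 and 12340. In the ATF4 list the difference was positive for 2 members and negative for 10 of 28. Among chaperones it was positive for 1 and negative for 4 of 22, against 17.3% and 13.8% of all genes.

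In the NRF2 and glutathione list the difference was negative for 16 of 28 members and positive for 2 (13.8% and 17.3% of all genes). Srxn1 differed by -3.24 ± 0.18 (adjusted p = 5.37e-10), Hmox1 by -3.84 ± 0.39 (adjusted p = 5.86e-07), Gclc by -2.83 ± 0.18 (adjusted p = 2.27e-09) and Sqstm1 by -2.82 ± 0.17 (adjusted p = 1.14e-09). The maturation list split, with the difference positive for 5 and negative for 7 of 25 (17.3% and 13.8% of all genes). Cd80 differed by -3.23 and Cd83 by -2.19, but Icosl by 1.61, Ciita by 1.59 and Cd74 by 0.61. From other lists, Mmp12 differed by -4.12, Il23a by -4.29 and Dusp1 by -3.82. For Dusp1 and Cd83 the DPI arrays were already above the non-treated arrays, at 714 to 1074 against 95 to 149 and 1337 to 1653 against 423 to 624, so the difference counts a higher start as well as a smaller rise.

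Cell cycle lists ran the other way. Over all genes the difference was positive for 17.3% and negative for 13.8%, and DNFB alone raised 10.5% and lowered 13.9%. The mitosis list had the difference positive for 25 of 29 and negative for 1, where DNFB without DPI raised 1 and lowered 28. DNA replication had 18 of 29 positive and none negative, with 22 lowered by DNFB alone. Rrm2 fell by 2.18 without DPI and was at -0.27 with it (difference 1.91 ± 0.18, adjusted p = 2.05e-07), and Top2a fell by 1.65 without DPI and rose by 0.75 with it (difference 2.41 ± 0.21, adjusted p = 1.19e-07). Interferon genes had 10 of 27 positive and none negative, with 8 lowered and none raised by DNFB alone, and ribosome biogenesis 15 of 26 positive and none negative. Lysosome and autophagy genes had none positive and 11 of 29 negative.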

How the data were processed

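RNA for 15 arrays, extracted with TRIzol and RNeasy Plus and labelled as biotinylated cRNA per the labels' protocols, was measured on Affymetrix mouse arrays. The deposited values are linear signal intensity, made by the authors with MAS5 in Affymetrix Expression Console, per the submitters' processing notes; versions are not given in the sources used here. The deposited intensity values had a 2% trimmed mean of 250 on 6 arrays and 500 on 9, so each array was rescaled to 500. Of 45101 probe sets, 64 controls were left out, and of the remaining 45037, 34945 had 1 gene symbol, 932 several and 9160 none. Symbols were updated through the gene identifier for 34741.

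Signals were taken as log2(signal + 15), and fold changes are on that scale, which understates changes of dim genes. Probe sets with a mean at or above the 40th percentile were kept, and the brightest stood for a gene, giving 12701 genes. limma 3.58.1 in R 4.3.3 (lmFit, eBayes with trend) fitted all 5 groups of 3 arrays, with Benjamini-Hochberg adjustment over all genes and a threshold of 0.05. The number of arrays limits the precision. The fit was tested on simulated data. The main fit did not pair samples by replicate number. Deviations of same-numbered DPI + DNFB and DPI arrays correlated at 0.031, 0.039 and -0.0003, and of different-numbered ones at -0.050 to 0.016. For DNFB and non-treated arrays the values were 0.052, 0.049 and 0.060 for the same number and -0.036 to -0.017 otherwise. A weak shared spread by replicate number was therefore left in the main fit.

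Named genes were the 12 largest rises and falls without overlap and with a mean signal of at least 100 in the higher group, predicted genes left out, up to 4 passing members of each list, a set named whatever the values, and the 6 largest differences between the DNFB effects each way. Members and lists were chosen with earlier results of these data known. Alternatives changed scaling, normalization, pseudocount, filter, probe set choice, moderation, weights, blocks, thresholds and arrays left out. List counts under replicate 2 alone, the beta-actin covariate, other scalings and the arrays at 500 were added after seeing the data. Promoters came from RefSeq (GRCm38.p6).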

Additional observations from a re-analysis of the deposited data

Results flagged for a closer look

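The DNFB effect with DPI differed from that without DPI, by the test of the difference, for 3945 genes, and the following 12 had the largest differences each way. Traf1 differed by -5.44 on the log2 scale: the signal was 31, 40 and 147 with DPI + DNFB and 157, 204 and 149 with DPI, while it was 4797, 3891 and 3743 with DNFB and 202, 280 and 195 in non-treated cells. Cxcl3 differed by -5.34, and Crisp3 by -4.52. Procr, the endothelial protein C receptor, differed by -4.50, with 436, 489 and 513 with DPI + DNFB and 701, 868 and 781 with DPI, against 9973, 8431 and 9853 with DNFB and 611, 683 and 677 in non-treated cells. The sphingomyelin synthase Sgms2 differed by -4.58 and the mucin Muc3 by -4.50, both with signals that scattered widely between arrays of a group.

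The 6 largest positive differences belonged to genes that fell with DNFB alone. Tmem119, a membrane protein known as a microglia marker, differed by 4.16, with 1294, 1181 and 1522 with DPI + DNFB and 466, 605 and 508 with DPI, against 312, 234 and 271 with DNFB and 2427, 1971 and 1775 in non-treated cells. Kcne3, a potassium channel subunit, differed by 4.23, Tifab by 3.83 and the fucosyltransferase Fut7 by 3.71. The transcriptional corepressor Cbfa2t3 differed by 3.43 and Sun3 by 3.41. For these 6 genes every DPI array was below every non-treated array, so the effects started from different levels.

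The control probe sets, which enter no gene test, differed too: the mean 3'/5' ratio of the DPI + DNFB arrays was 1.95 for beta-actin and 1.10 for Gapdh, above the mean of every other group. Their part in the gene results was not tested beyond the covariate and the fit with replicate 2 alone.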

How the results depend on the processing

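For DPI + DNFB against DPI, 3530 genes passed, and 7 with the values as deposited, where 2 scaling targets are mixed within groups, 5596 with every probe set tested by itself, 2225 with only the arrays deposited at 500, 541 with the beta-actin covariate, 1270 with DPI + DNFB replicate 2 alone, 2111 at an adjusted p of 0.01 and 668 at 2-fold or more. For the difference between the DNFB effects, 3945 passed, and 137, 2265, 2577, 2608 and 2016 with the values as deposited, the arrays at 500, the covariate, the threshold of 0.01 and the 2-fold limit. Leaving out 1 array gave 2590 to 3794 and 3483 to 4175 genes. The mean of a gene's probe sets turned Cdkn1a to 0.0447, Psma1 to 0.43 and Traf1 to 0.12, and the covariate turned Krt78 to -0.33 and Psma1 to 0.0052. The cause was not tested. Of the 115 named genes that passed, 61 still passed with replicate 2 alone, 35 with the covariate and 104 with quantile normalization. With the replicate number as a block, 3971 and 4334 genes passed, against 3530 and 3945 without it. Dim genes are limited by the pseudocount and the filter.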
